A study of Mus musculus with 8 samples.

Results

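The choroid plexus and ependymal marker genes described here were Ttr, Kl, Folr1, Aqp1, Clic6, Otx2, Kcne2, Enpp2, Sostdc1 and Foxj1, 10 of 21451 genes that the platform annotation names. Probe sets annotated to exactly 1 of these symbols were taken, which gave 111 of the 625534 probe sets on the array. Affymetrix mouse exon arrays measured total RNA from the cortex of embryos at embryonic day 18.5, with 4 wild type and 4 Ptbp2 knockout (KO) embryos and 1 array each. Both groups had the same mixed CD1 and C57BL/6 strain background, and the series design calls the samples biological replicates. How the knockout allele was made, litter and dissection are not stated in the labels. Ptbp2, whose product is a neuronal RNA-binding protein that represses exons, was at 11.20 ± 0.14 (SD, n = 4) in wild type and 5.95 ± 0.34 (SD, n = 4) in knockout cortex on the log2 signal scale (limma adjusted p = 1.7e-12), so each library matched its label.

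The choroid plexus is a fold of vascular tissue covered by a secretory epithelium that hangs in the brain ventricles and makes cerebrospinal fluid. Its epithelium is continuous with the ependyma, the ciliated lining of the ventricles, and lies next to the medial edge of the cortex, where a dissection can take it along. Its cells are known for very strong expression of the thyroxine and retinol carrier transthyretin, for ion and water transport at the apical membrane, and for the transcription factor Otx2. Cortical neurons are not known as a main source of these transcripts.

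The values are log2 signals after RMA, and a gene's level on an array is the median over its probe sets with enough signal. A probe set was kept where it averaged 6.84 or more on the 8 arrays, 6.84 being the midpoint of all probe sets. Of the 10 genes, 9 had the minimum of 4 such probe sets and entered the fit over 12960 genes. Sostdc1 had 3, and its level is their median. Array medians of all probe sets lay between 6.82 and 6.93. The tissue label was met by the cortical transcription factor gene Neurod6, which lay between 11.29 and 11.68 on all 8 arrays. The 10 genes were selected on signals of these same 8 arrays, as genes set beside Ttr with its wild type and knockout values known, so the values of the 10 genes in that comparison are descriptions and carry no test. Ttr follows first, then the other genes by role. In RNA from whole tissue, fewer cells of a type and less RNA per cell cannot be told apart.

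Ttr, which encodes transthyretin, had close values on 7 arrays and a far lower one on the array of knockout 2. In wild type 1 to 4 it was at 13.38, 13.33, 13.32 and 13.32, and in knockout 1 to 4 at 13.18, 9.36, 13.32 and 13.34. Knockout 2 thus differed by -3.96 log2 units from the median of the other 7 arrays, a 15.6-fold lower signal, while those 7 arrays spanned 0.20. The group means were 13.34 ± 0.026 in wild type and 12.30 ± 1.96 in knockout (SD, n = 4 each), a difference of -1.04 (SE 0.62), and -0.06 (SE 0.096) without knockout 2. All 7 Ttr probe sets passed the signal filter and all 7 were lowest in knockout 2. Their differences ran from -6.18 in probe set 5192977, at 5.79 in knockout 2 against 11.56 or more elsewhere, to -3.11 in probe set 5513021, at 10.28 against 13.22 or more. Probe sets 5192977 and 5278467 lay below the signal filter in knockout 2, at 5.79 and 4.51, so their differences are not exact sizes. The other 5 probe sets had medians of 12.79 to 13.45 on the 7 arrays, near the top of the range, where the brightest probe set of an array lay between 14.09 and 14.36. These 5 differed by -4.09 to -3.11 in knockout 2 and spanned 0.20 to 0.39 on the other arrays, whereas 5192977 and 5278467 differed by -6.18 and -5.36 and spanned 0.69 and 0.99. The gene's fold and its narrow spread therefore rest on bright probe sets and describe signal, not amounts of RNA. Saturation of these probe sets was not tested.

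**Figure D1:**
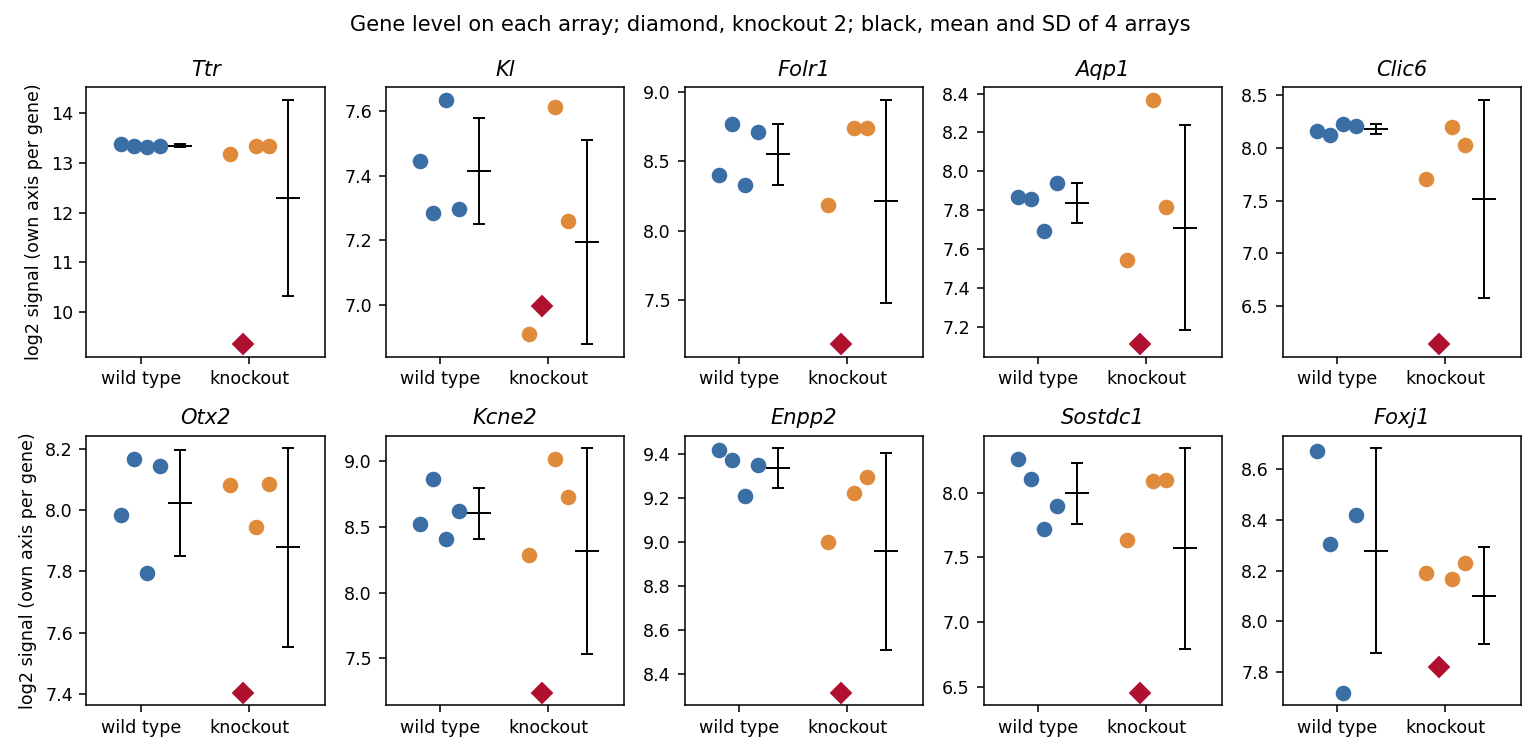
Log2 signal of each of the 10 marker genes (y axis, scaled for each gene) on the 4 wild type and 4 knockout arrays, with the knockout 2 array as a diamond and group means with SD in black. Knockout 2 is the lowest of the 8 arrays in every panel except those of Kl and Foxj1, and Ttr is at 9.36 there against 13.18 or more on the others.

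Genes of ion and water transport at the plexus epithelium were next. Clic6 encodes an intracellular chloride channel family protein. It was at 8.15, 8.12, 8.22 and 8.20 in wild type 1 to 4 and at 7.70, 6.14, 8.19 and 8.03 in knockout 1 to 4. Knockout 2 differed by -2.01 from the median of the others and lay below the signal filter, and knockout 1 was the lowest of the remaining arrays. The difference between the groups was -0.66 (SE 0.30), and -0.20 (SE 0.12) without knockout 2.

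Kcne2 encodes a small potassium channel subunit that pairs with larger pore subunits such as Kcnq1. Its levels were 8.52, 8.86, 8.41 and 8.62 in wild type and 8.29, 7.24, 9.02 and 8.73 in knockout cortex. Knockout 2 was again the lowest array, at -1.38 from the median of the others, and knockout 3 was the highest. The group difference of -0.29 (SE 0.26) turned to 0.07 (SE 0.15) without knockout 2.

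Aqp1 encodes the water channel aquaporin 1 of the apical membrane. It was at 7.87, 7.86, 7.69 and 7.94 in wild type 1 to 4 and at 7.54, 7.11, 8.37 and 7.82 in knockout 1 to 4. Both the lowest and the highest array were knockouts, and knockout 2 differed by -0.75 from the median of the other 7. The difference of -0.13 (SE 0.19) turned to 0.07 (SE 0.15) without it.

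Among the receptor and secreted products of the plexus, knockout 2 was the lowest array and knockout 1 the next lowest, except for Kl, where knockout 1 was lowest. Folr1 encodes the folate receptor that carries folate across the plexus into the fluid. It was at 8.40, 8.77, 8.33 and 8.71 in wild type and at 8.18, 7.18, 8.74 and 8.74 in knockout cortex. Knockout 2 differed by -1.52 from the median of the others, and the group difference of -0.34 (SE 0.25) was 0.0017 (SE 0.15) without it.

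Enpp2 encodes autotaxin, a secreted enzyme that makes lysophosphatidic acid, and is also known from oligodendrocyte lineage cells. In wild type 1 to 4 its level was 9.42, 9.37, 9.21 and 9.35, and in knockout 1 to 4 it was 9.001, 8.32, 9.22 and 9.30. Knockout 2 differed by -0.98 from the median of the others and knockout 1 was next. The difference between the groups was -0.38 (SE 0.16), and -0.16 (SE 0.11) without knockout 2.

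Sostdc1 encodes a secreted inhibitor of BMP and Wnt signals. Its levels were 8.26, 8.10, 7.72 and 7.90 in wild type and 7.64, 6.45, 8.09 and 8.10 in knockout cortex. Knockout 2 was at -1.63 from the median of the others and below the signal filter. The group difference of -0.42 (SE 0.26) was -0.05 (SE 0.14) without it.

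Kl encodes klotho, a membrane protein that acts as a co-receptor for FGF23 and is shed into the fluid. It was at 7.45, 7.28, 7.64 and 7.30 in wild type and at 6.91, 6.996, 7.61 and 7.26 in knockout cortex. Here knockout 1 was the lowest array, and knockout 2 differed by -0.30 from the median of the others. The difference of -0.22 (SE 0.14) was -0.16 (SE 0.15) without knockout 2. Only 5 of the 21 Kl probe sets passed the signal filter.

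The last 2 genes encode transcription factors. Otx2 is a homeodomain factor needed for plexus development, and it was at 7.98, 8.17, 7.79 and 8.14 in wild type and at 8.08, 7.40, 7.94 and 8.09 in knockout cortex. Knockout 2 was lowest, at -0.68 from the median of the others, and the group difference of -0.14 (SE 0.14) turned to 0.02 (SE 0.11) without it. Foxj1 directs the formation of motile cilia in ependyma and plexus. Its levels were 8.67, 8.30, 7.72 and 8.42 in wild type and 8.19, 7.82, 8.17 and 8.23 in knockout cortex. Wild type 3 was the lowest array for Foxj1, and knockout 2, at -0.41 from the median of the others, lay within the range of the other arrays. The Foxj1 difference was -0.18 (SE 0.16), and -0.08 (SE 0.17) without knockout 2.

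In all, 10 of 10 differences between the groups were below 0 with all arrays, with a median of -0.31. Over the 12960 genes tested, 49.0% were below 0 and the median was 0.0027. Without knockout 2, 6 of the 10 marker genes were below 0 and their median was -0.05. Of the 9 genes in the fit, 0 passed an adjusted p of 0.05 in limma (0.116% of all genes tested did, 0.0617% lower in knockout). The unadjusted limma p was under 0.05 for 2 of the 9, both lower, and for 491 lower and 350 higher of all 12960 genes. In 0 of the 10 genes did the 2 groups separate without overlap, against 3.65% of all genes tested, 1.97% with knockout lower. The comparison had been used to choose the genes, so nothing is read from these counts.

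**Figure D2:**
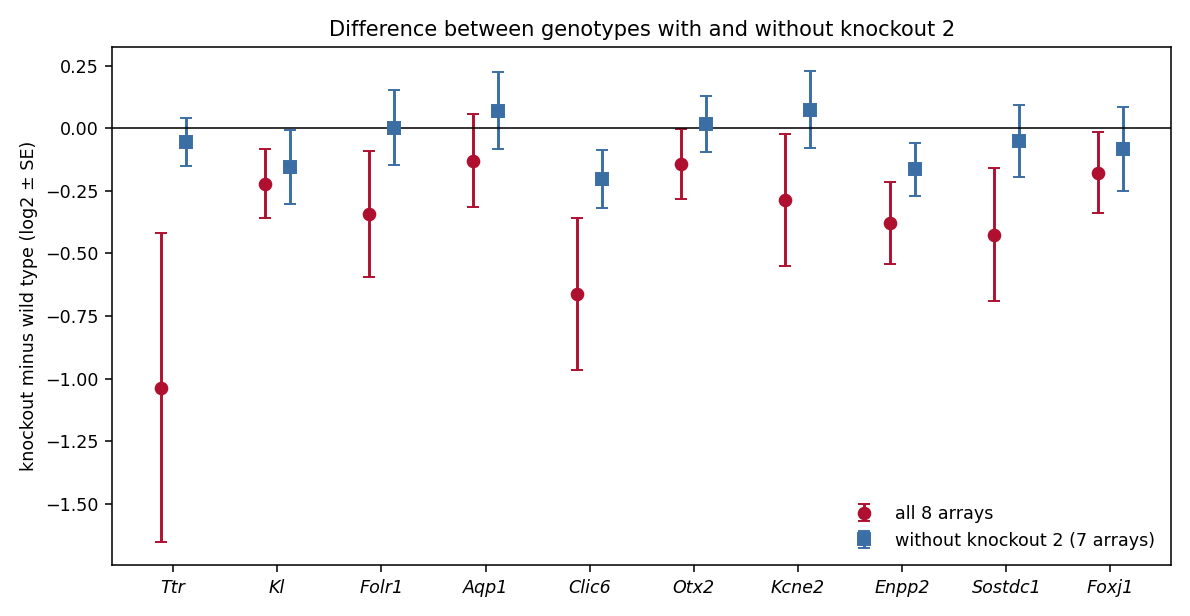
Knockout minus wild type in log2 units with its standard error (y axis) for each marker gene (x axis), from all 8 arrays (circles) and without knockout 2 (squares). All 10 circles lie below 0, Ttr is at -1.04 with all arrays and -0.06 without knockout 2, and the squares of Folr1, Aqp1, Otx2 and Kcne2 lie above 0.

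Knockout 2 was the lowest of the 8 arrays in 8 of the 10 genes, and in 7 of them its gap to the next array was wider than the whole range of the other 7 (Ttr, Folr1, Clic6, Otx2, Kcne2, Enpp2 and Sostdc1). Over all genes tested, 13.8% were lowest in knockout 2 and 0.517% had such a gap. Knockout 2 was singled out because earlier results of these data showed it apart in Ttr. The genes were set beside Ttr on the same arrays, so these counts are descriptions and carry no test. The 67 tested genes with such a gap included 6 of the marker genes, Sostdc1 being outside the fit. The largest drops among these 67 were those of Ttr, Clic6, Folr1 and Kcne2, in that order. The Y-linked genes Eif2s3y and Kdm5d were also low in knockout 2, at -6.11 and -2.83, but spanned 6.18 and 3.23 on the other 7 arrays. The arrays thus differed in Y-linked signal, and a part of embryo sex in the marker gene values was not tested. With every probe set of the 10 genes in the median, whatever its signal, knockout 2 was lowest in 10 of 10, with Kl at 5.17 against 5.41 or more and Foxj1 at 7.62 against 7.70 or more.

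A smaller shift was seen in knockout 1. Leaving knockout 2 aside, knockout 1 was the lowest of the other 7 arrays in 8 of the 10 genes, which held for 6.89% of all genes tested. The genes were chosen on these arrays, so this count is a description as well. The exceptions were Otx2 and Foxj1, whose lowest array was wild type 3, the array that was lowest of 8 in 32.4% of all genes tested. Relative to the median of the remaining 6 arrays, knockout 1 stood at -0.54 for Folr1, -0.47 for Clic6, -0.46 for Kl, -0.45 for Sostdc1, -0.39 for Kcne2, -0.32 for Enpp2 and Aqp1, and -0.15 for Ttr. By probe set, Ttr in knockout 1 stood at -0.77 in 5278467, -0.43 in 5192977 and between -0.23 and -0.11 in the 5 brighter ones, so the gene value of -0.15 follows the bright probe sets.

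The probe sets of a gene did not all show the low value in knockout 2. Of the 83 probe sets of the 10 genes that passed the signal filter, 68 were lowest in knockout 2 and 35 had a gap wider than the range of the other 7 arrays. Over all 204300 such probe sets with a single gene name these shares were 13.8% and 0.789%. The array and the genes were picked on these signals, so the counts are descriptions. For Aqp1 all 9 retained probe sets were lowest there, for Enpp2 26 of 29, for Clic6 and Folr1 7 of 8 each, for Otx2 4 of 5, for Kcne2 3 of 4 and for Sostdc1 3 of 3. For Kl and Foxj1 it was 1 of 5 each.

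Single probe sets stood out from their gene. In Folr1, probe set 4882318 was at 5.24 in knockout 2 against 7.86 or more on the other arrays, while probe set 5018107 was at 9.56, within their range. In Clic6, probe set 5538706 was at 5.60 against 8.17 or more, and probe set 4710649 was at 8.29 with a difference of -0.0099 from the median of the others. In Kcne2, probe set 4589068 was at 6.31 against 8.25 or more, and probe set 5349929, at 8.76, lay 0.25 above the median of the others. In Kl, probe sets 4390951 and 5006662 lay at 10.13 and 9.80 in knockout 2, where the medians of the other arrays were 10.15 and 9.73. The lowest of these values lay below the signal filter and give no exact size. The gene levels of Folr1, Clic6 and Kcne2 in knockout 2 therefore mix probe sets with and without the drop. Exon positions of the probe sets were not used here.

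**Figure D3:**
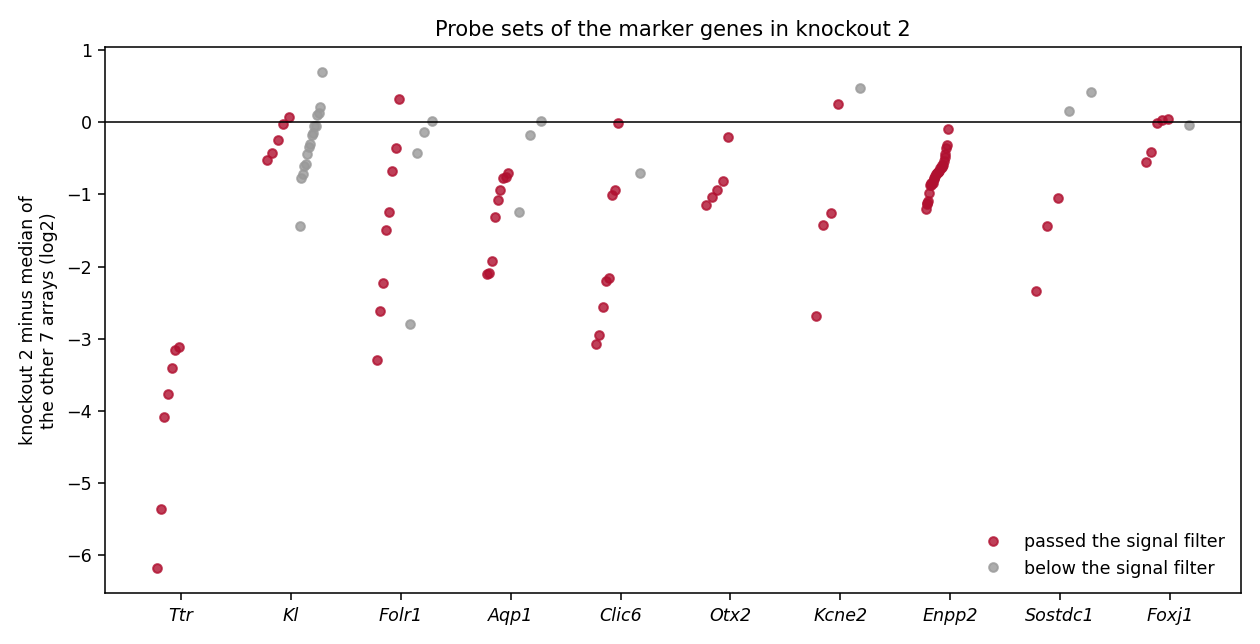
Each of the 111 probe sets of the 10 genes (x axis) by its value in knockout 2 minus the median of the other 7 arrays, in log2 units (y axis), red where it passed the signal filter and grey where it did not. All 7 Ttr probe sets lie at -3.11 or lower, those of Enpp2 between -1.20 and -0.10, and the retained sets of Foxj1 between -0.55 and 0.04.

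Usage of probe sets within a gene, which sets each one against the others of its gene in wild type and knockout, was also fitted. By limma diffSplice, 0 of the 80 probe sets of the 9 genes tested passed an adjusted p of 0.05, where 0.216% of all 195622 probe sets did. No p is read for these genes. The deviations ran from -0.77 in Ttr probe set 5192977 to 0.59 in Clic6 probe set 4710649, the probe sets with the largest and the smallest drop of their genes in knockout 2.

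Promoter sequences were available for 4 of the 10 genes in the RefSeq table (GRCm38.p6), and they are shown because Kcne2, Aqp1 and Otx2 were low together in knockout 2 and Otx2 is itself a transcription factor. In the 250 bases before each start, the letters TAATCC, the core bound by Otx proteins, and GTTGCC, one arm of the X-box motif of RFX factors, were searched on both strands. The motifs do not overlap each other. Of 8 windows for Kl, Aqp1, Otx2 and Kcne2, 1 held TAATCC, as did 6.25% of all 32851 windows, and 4 held GTTGCC, as did 10.4% of all windows. Of these 4, 2 were overlapping windows of Otx2 that share a match. Capitals mark the matches, GGCAAC being GTTGCC and GGATTA being TAATCC read on the opposite strand.
Kcne2 (chr16:92292139-92292388, plus strand): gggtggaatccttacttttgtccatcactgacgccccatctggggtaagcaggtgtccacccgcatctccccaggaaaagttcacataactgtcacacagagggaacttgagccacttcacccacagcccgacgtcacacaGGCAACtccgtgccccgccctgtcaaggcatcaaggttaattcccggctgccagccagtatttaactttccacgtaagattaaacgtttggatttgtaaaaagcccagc
Aqp1 (chr6:55336049-55336298, plus strand): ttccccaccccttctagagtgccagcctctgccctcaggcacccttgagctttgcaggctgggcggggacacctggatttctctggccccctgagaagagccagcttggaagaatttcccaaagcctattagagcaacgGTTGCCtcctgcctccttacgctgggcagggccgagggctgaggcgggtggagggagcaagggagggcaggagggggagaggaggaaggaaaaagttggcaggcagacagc
Otx2 (chr14:48665110-48665359, minus strand): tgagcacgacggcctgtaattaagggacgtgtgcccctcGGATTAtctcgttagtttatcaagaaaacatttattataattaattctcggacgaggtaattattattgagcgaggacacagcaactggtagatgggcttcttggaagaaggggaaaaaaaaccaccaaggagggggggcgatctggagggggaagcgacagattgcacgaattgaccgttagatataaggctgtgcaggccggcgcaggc
The match begins 109 bases before the start in Kcne2, 111 in Aqp1 and 211 in Otx2. The Kl window held neither motif. A match describes the letters of a window and says nothing on binding.

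Lists of other choroid plexus epithelium genes, which exclude the 10 genes, had medians below 0 in knockout 2 as well. These medians were smaller in size than the -0.98 of the 9 tested marker genes, though single genes fell by more than some markers. Of 21 tested genes for ion, water and solute transport at the plexus, 14 were lowest in knockout 2 (66.7%, against 13.8% of all genes), 1 of them with a gap wider than the range of the others, with a median of -0.30 against the other arrays and -0.04 over all genes. Car12, a carbonic anhydrase, was at 6.21 in knockout 2 and between 7.16 and 7.79 on the others, and the potassium channel Kcnj13 was at 6.43 against 7.18 or more. The endocytic receptor Lrp2 was at 7.42, 0.08 above the median of the others. Of 17 other epithelial genes, 12 were lowest in knockout 2, 5 of them with such a gap, with a median of -0.41. Such a gap was found in 0.517% of all genes tested. Ecrg4, which encodes a secreted peptide precursor, was at 6.67 against 7.80 or more, the serotonin receptor Htr2c at 7.52 against 8.30 or more, and coagulation factor F5 lay 0.22 above the median of the others. The values of Car12, Kcnj13 and Ecrg4 in knockout 2 lay below the signal filter, so these differences are not exact sizes.

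Genes of the ciliated ependyma and of other tissues were described in the same way, beside the 13.8% of all genes tested that were lowest in knockout 2. Of 20 ependymal and motile cilia genes, 7 were lowest in knockout 2, with a median of -0.12 and 0 with a gap wider than the range of the other arrays. The lowest value on that list was -0.45, and Foxj1 stood at -0.41, toward that end. The cortical hem, the signalling edge next to the plexus, had 1 of 10 lowest and a median of -0.0010. Meningeal and stromal genes had 9 of 16 lowest and a median of -0.19, with Ogn, a small proteoglycan, at 7.68 and -0.93 from the median of the others. Vessel and pericyte genes had 2 of 13 lowest and a median of -0.06, although the organic anion transporter Slco1a4 was at 6.31 against 7.24 or more. Red blood cell genes had 0 of 3 lowest and a median of 0.13, and cortical neuron genes 1 of 10 and a median of -0.06. Striatal neuron genes had 1 of 8 lowest, but their median was -0.30, as in the plexus transport list, and knockout 3 was lower still on their array profile, at -0.45 against -0.26 in knockout 2.

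**Figure D4:**
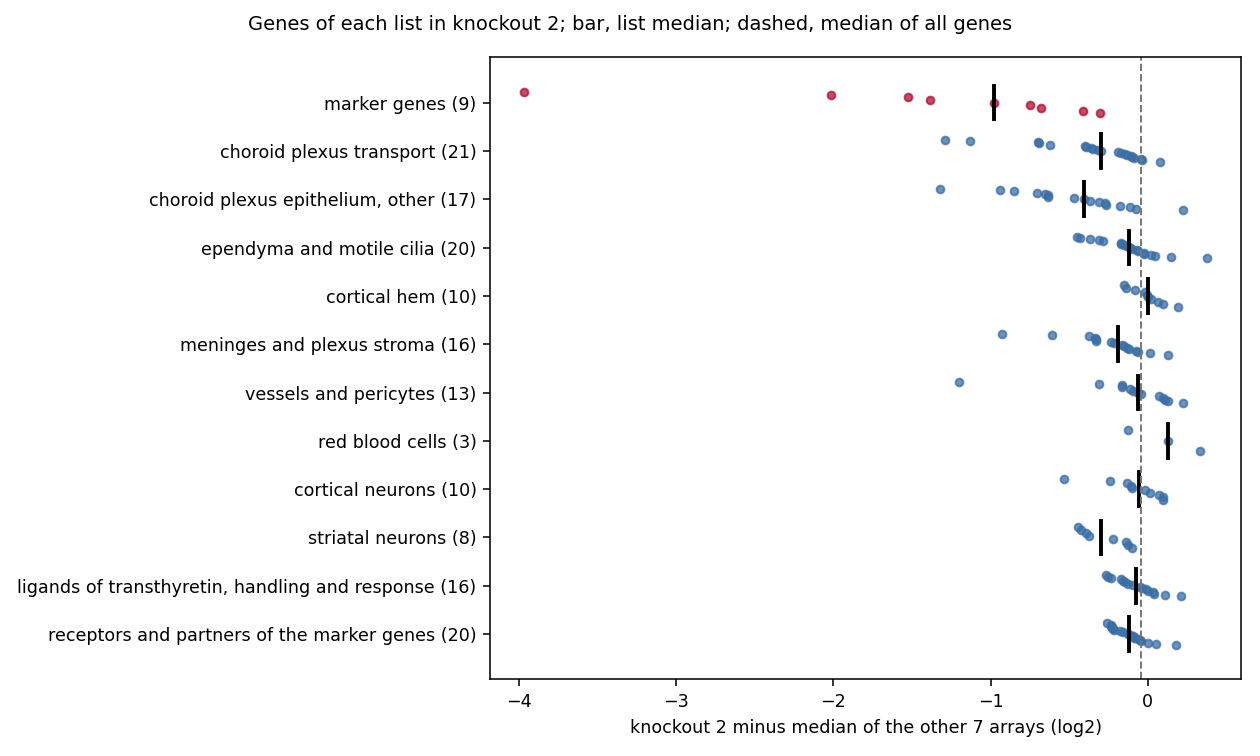
Every tested gene of each list (rows, number of genes in brackets) by its value in knockout 2 minus the median of the other 7 arrays, in log2 units (x axis), with the list median as a bar and the median of all genes, -0.04, as a dashed line. The marker genes reach -3.96 with a median of -0.98, the 2 other plexus lists have medians of -0.30 and -0.41, and the cortical hem list has a median of -0.0010.

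The signal of each list was also summed on the linear scale. For the 9 tested marker genes it was 10.97 in log2 units in knockout 2 and between 13.48 and 13.71 on the other arrays. Ttr made up most of that sum on the other arrays, but not in knockout 2, where Ttr was at 9.36. Without Ttr the other 8 genes summed to 10.39 in knockout 2 and 11.10 to 11.50 elsewhere. For plexus transport genes it was 12.81 in knockout 2 and 13.02 to 13.15 on the others, and for the other epithelial genes 12.54 against 12.81 to 13.12. For meningeal and stromal genes the sum was 13.06 in knockout 2 and 13.08 to 13.54 on the others, and for ependymal genes 12.16 in knockout 2 and 12.16 to 12.40 on the others. The cortical neuron sum in knockout 2, 14.01, lay inside the range of the other arrays, 13.93 to 14.14. The part of carried-over plexus or stroma in the difference between the groups was not tested.

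**Figure D5:**
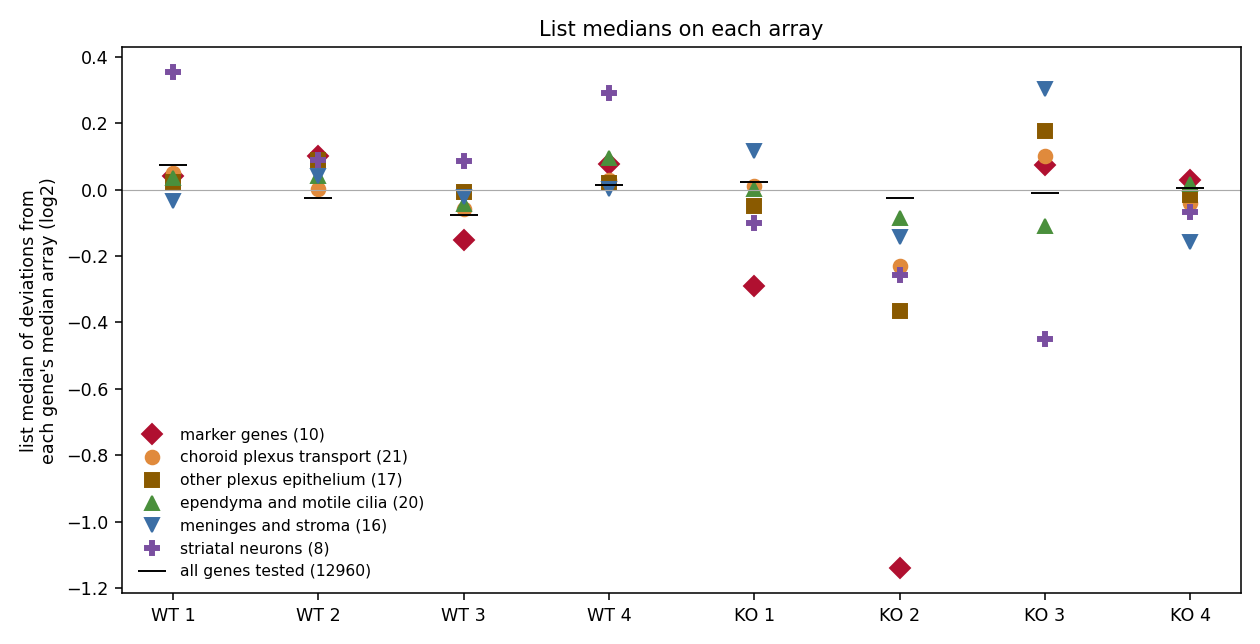
For each array (x axis), the median over a list of each gene's deviation from its own median over the 8 arrays, in log2 units (y axis), with the number of genes in brackets. The 10 marker genes are at -1.14 in knockout 2 and -0.29 in knockout 1, between -0.15 and 0.10 on the other 6 arrays, and meningeal and stromal genes reach 0.30 in knockout 3.

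Which genes outside the 10 had a pattern like Ttr was asked over all genes tested. The likeness required the lowest of 8 values in knockout 2 with a gap wider than the range of the other 7 arrays, which 61 further genes met, and the 20 with the largest drop are named. With the marker genes these were 67, or 0.517% of all genes tested. The same rule gave 605 genes for wild type 3, 121 for knockout 3, 109 for wild type 2 and 4 to 34 for the remaining arrays. After Ecrg4 (-1.32 against the median of the others), Car12 (-1.29) and Slco1a4 (-1.20) came Sulf1, an enzyme that edits heparan sulfate (-1.18), Serpinb1b, a protease inhibitor (-1.08), and Foxi2, a forkhead factor (-1.0001). Htr2c followed at -0.94, then the sugar transporter Slc2a12 (-0.88), Tmem72 (-0.85), the adhesion protein embigin gene Emb (-0.71), the lipid acyltransferase Lpcat2 (-0.68) and the angiotensin converting enzyme gene Ace (-0.66). The remaining 8 were Lrrc51 (-0.65), the collagen gene Col8a1 (-0.63), the connexin gene Gja1 (-0.59), Efcab2 (-0.59), Perp (-0.58), Adgra1 (-0.55), Naaa (-0.53) and Otogl (-0.53). Of the 20, 6 were on the 2 plexus lists, 1 on the vessel list and 13 on none. Slco1a4 and Serpinb1b were at 6.31 and 6.41 in knockout 2, below the signal filter, as were Ecrg4, Car12, Col8a1, Efcab2 and Perp. Without knockout 2, 17 of the 20 had a group difference within 0.1 of 0. Their limma adjusted p with all arrays lay between 0.54 and 0.95. The rule picked genes with 1 outlying array and a narrow range on the others, which favours both outcomes, so nothing is read from them.

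Between wild type and knockout, the genes of the 11 other lists were tested in the same limma fit. Of 152 tested genes, 0 passed an adjusted p of 0.05 (0.116% of all genes did; 1 to 5 passed under 6 other settings with all arrays), while 20 were lower and 2 higher at an unadjusted p under 0.05, and 491 lower and 350 higher of all 12960. Of all genes tested, 49.0% lay below wild type, the share to set beside the list counts that follow. In plexus transport, 17 of 21 lay below wild type with a median of -0.06, and 0.02 without knockout 2. The smallest p belonged to Lrp2 (-0.25, adjusted p = 0.72), the bicarbonate transporter Slc4a10 (-0.25, adjusted p = 0.75), Slc29a4 (-0.14) and the zinc transporter Slc39a12 (-0.22). Among other epithelial genes, 12 of 17 lay below with a median of -0.14, and 0.02 without knockout 2, led by Cab39l (-0.28), Krt8 (-0.22), Rdh5 (0.19) and F5 (0.18).

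Ependymal genes lay below wild type in 16 of 20, with a median of -0.08 with and without knockout 2, and for 5 of them the unadjusted p was under 0.05, all lower. The leading members were Ccdc153 (-0.46, limma adjusted p = 0.43), Spag6 (-0.29), Mlf1 (-0.34) and Cfap54 (-0.24), none of which passed. Cortical hem genes lay below in 6 of 10 (median -0.02), with Id3 at 0.41, Lmx1a at -0.29, Wnt2b at -0.11 and Wnt7b at 0.08. Meningeal and stromal genes lay below in 8 of 16 (median 0.02, and 0.10 without knockout 2), with Cemip at -0.17, Col3a1 at 0.15, Tbx18 at 0.17 and Islr at 0.13. Vessel and pericyte genes lay below in 4 of 13 (median 0.07), with Kcnj8 at 0.27, Slc2a1 at 0.17, Abcc9 at 0.12 and Kdr at 0.12. Red blood cell genes lay below in 2 of 3 (median -0.07), with Alas2 at 0.25, Epb42 at -0.15 and Slc4a1 at -0.07.

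Neuronal lists bracket the tissue. Cortical neuron genes lay below wild type in 4 of 10 (median 0.03), with the vesicular glutamate transporter Slc17a7 at -0.49 (limma adjusted p = 0.36), Fezf2 at 0.23, Lhx2 at 0.19 and Tbr1 at -0.20. Striatal neuron genes lay below in 8 of 8 (median -0.41, and -0.39 without knockout 2). For 7 of them the unadjusted limma p was under 0.05, all lower. The smallest p belonged to Ppp1r1b at -0.48 (limma adjusted p = 0.085), Tac1 at -0.75 (0.095), Penk at -0.47 and Ikzf1 at -0.37.

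Genes that act with the marker genes closed the comparison. Of 16 tested genes that handle or respond to thyroid hormone and retinoids, the ligands that transthyretin carries alone or with its partner, 14 lay below wild type with a median of -0.09, and -0.07 without knockout 2. Crabp1, a retinoic acid binding protein, had the smallest p, at -0.49 (SE 0.10, limma adjusted p = 0.10), followed by Cyp26b1, which degrades retinoic acid (-0.32), the deiodinase Dio2 (-0.19) and the retinol carrier Rbp4 (-0.13). In knockout 2 this list lay -0.07 against the other arrays, and 3 of 16 were lowest there (13.8% of all genes were), while Ttr was at -3.96. Of 20 tested receptors and partners, such as the lysophosphatidic acid receptors downstream of autotaxin and the folate transporters, 9 lay below wild type with a median of 0.0098. Their leading members were the proton-coupled folate transporter Slc46a1 (0.27), Lrp4 (0.14), Lpar4 (0.15) and Fgfr2 (-0.13), with adjusted p from 0.79 upward, and 4 of 20 were lowest in knockout 2.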

How the data were processed

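The deposited table holds log2 values per probe set. The submitters' processing notes name RMA, Affymetrix Expression Console and mm9; their versions and roles are not stated there. RMA corrects background, equalizes the distributions of arrays and compresses low signals. A platform annotation gave 303629 probe sets exactly 1 symbol, 5892 several and 316013 none, with old symbols updated through RefSeq synonyms. Gene medians of retained probe sets were fitted in R 4.3.3 with limma 3.58.1 (lmFit, eBayes), genotype alone in the design and Benjamini-Hochberg adjustment at 0.05, and usage with diffSplice. The fits were tested on simulated arrays, where diffSplice also called some unshifted probe sets. Precision is limited by the number of arrays, 8.

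The marker genes and lists were chosen with earlier results of these data known. Genes named are the 10 markers, up to 20 lowest and 5 highest in knockout 2 by the gap rule, and, per list, those past the threshold and up to 4 with the smallest p; Kcnj13, Ogn, Neurod6 and other genes named with their value in knockout 2 were chosen after their values were seen. Alternatives were no signal filter, a stricter one (75th percentile), normalization by cyclic loess or quantiles, means, a minimum of 1 probe set, trend with robust, array weights, the replicate number as a block, the splicing index and arrays left out.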

Additional observations from a re-analysis of the deposited data

Results flagged for a closer look

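Within each group of 4 arrays, the farthest array was set against the others for the 10 marker genes, which gave 20 groups and 3 arrays apart; chance sets apart about 1 group in 20 where groups are independent. These genes share arrays and were chosen on them, so the count is a description. Ttr in knockout 2 was at 9.36 against 13.18 or more on the other knockout arrays. Foxj1 in knockout 2 was at 7.82 against 8.17 or more, although wild type 3 was lower still. Ttr in wild type 1 was at 13.38 against 13.33 or less on the other wild type arrays, a gap of a few hundredths of a log2 unit.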

How the results depend on the processing

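With 1 array left out, the median difference of the 10 marker genes had a low of -0.49 when knockout 3 was dropped and a high of -0.05 when knockout 2 was; leaving out both arrays numbered 3 gave -0.55. All 10 differences stayed below 0 in each setting run, except the 4 named in the report without knockout 2, and except with the filter at the 75th percentile, where 8 of the 10 had a value and Kl was at 0.05. Ttr in knockout 2 was at -4.18 against the other arrays with the mean of probe sets, and between -3.99 and -3.93 otherwise. Marker genes lowest in knockout 2 numbered from 6 of the 8 with a value (75th percentile) to 10 of 10 (no filter). Of the probe sets of the marker genes, 0 changed in usage in the settings run for usage (both filters, both normalizations, the block, the splicing index and arrays left out). Genes changed in level numbered 15, and 7 with no filter, 5 with a minimum of 1 probe set, 25 at the 75th percentile, 24 with quantile normalization, 37 with means, 71 with array weights, 9 without both arrays numbered 3, and 7 to 15 with 1 array left out (7 without wild type 2, 8 without wild type 4, 9 without knockout 1 or knockout 2). Other list genes passing limma numbered 0, and 0 to 1 with 1 array left out (Crabp1 without wild type 1, Ppp1r1b without wild type 3). In settings added for these lists after seeing the data, 2 passed at the 75th percentile (Crabp1, adjusted p = 0.0082, and Ebf1, 0.031), 1 with quantile normalization (Ppp1r1b, 0.034), 1 with cyclic loess (Ppp1r1b, 0.039), 2 with means (Crabp1, 0.0080, and Penk, 0.012) and 5 with array weights (Crabp1, Drd1, Ikzf1, Ppp1r1b and Tac1, 0.0040 to 0.047). With the replicate number as a block, 22 genes passed, 2 of them list genes (Crabp1, limma adjusted p = 0.049, and Tac1, 0.016), and the median of the marker genes was -0.31. Deviations of same-numbered arrays correlated at -0.0039 to 0.25. The best partner was the same-numbered knockout for replicates 1 and 4, and another knockout for 2 and 3. The numbers were not taken as pairs in the main fit. Signals below 6.84 in knockout 2 limit the exact size of each drop that reaches them.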

Other observations

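By the mirrored rule, 11 genes were highest in knockout 2 with a gap wider than the range of the other 7 arrays. The 5 with the largest difference from the median of the others were 4930429B21Rik (0.60), the chemokine gene Ccl9 (0.50), Togaram2 (0.42), the Ras pathway scaffold Cnksr1 (0.32) and the phagosomal metal transporter Slc11a1 (0.31). The genes lowest there by that rule numbered 67. By the same rule, wild type 3 was lowest with a gap in 605 genes, more than any other array, and knockout 2 came after wild type 3, knockout 3 (121) and wild type 2 (109).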
